A study of Mus musculus with 8 samples.

Results

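Coagulation and complement factors that the liver makes were followed in the livers of 8 mice, 3 labelled as Me1 knockouts (Me1-/-) and 5 labelled as wild type. The set was chosen by name, with earlier results of these data known. It holds 39 genes, of which 38 had at least 1 probe among 19896 named genes. They were read by 45 probes, with 2 probes for 7 genes and 1 probe for the other 31, and probes of 1 gene were averaged. C8g is not analysed here. C1s1 was listed as C1s, Cfb as H2-Bf, Cfd as Adn and C4b as C4, and the probe for C4b may also read its close copy C4a. Me1, also called Mod1, encodes the cytosolic malic enzyme, which makes NADPH for lipid synthesis. Knockout and wild-type mice were littermates, and 1 array column was deposited per mouse. The labels used here give no age, sex, strain, diet or other treatment, and do not say how the Me1 allele was made. On 2-colour arrays, the liver RNA of each mouse competed with a reference mixed from 5 wild-type livers, called the pool below. All values below are therefore log2 ratios of a mouse to that pool, or differences between such ratios, and they give no level of one gene against another. Wild-type mice are numbered 14, 15, 21, 22 and 26, and knockouts 27, 31 and 33, as in the labels. Knockout below means a mouse labelled so, and the small number of arrays limits the precision of every difference.

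Hepatocytes secrete most of the clotting factors and complement proteins of the blood. In coagulation, proteases activate each other in a chain that ends with thrombin cutting fibrinogen to fibrin, while anticoagulants such as protein C and the protease plasmin limit or dissolve the clot. Complement is a second protease chain, started by antibodies, by sugar-binding lectins or spontaneously, which converges on C3 and ends with C5 to C9 forming a pore in the target membrane. Several of these genes are known to respond to inflammatory cytokines or to hormones in the liver.

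The targeted gene did not separate the groups. Me1 stood at 0.82, -0.81 and -0.68 in knockout mice 27, 31 and 33, while wild-type mice 14, 15, 21, 22 and 26 had 0.82, -0.64, -0.70, -1.73 and 0.70. These differ by 0.09 ± 0.64 (SE), with an exact permutation p of 0.875 (two-sided, 56 splits, smallest possible p 0.0179). With the sign of all knockout values turned the difference is 0.54 ± 0.64. The position of the Me1 probe against the alteration is unknown here, so Me1 cannot serve as a check of the labels. Neither the base nor the direction of the deposited ratios is stated. If the pool resembles the average wild type, the mean linear ratio over the 5 wild types should lie near 1. Over the 300 most variable probes its median was 0.999 for log10 ratios with the mouse as numerator and 1.33 in the opposite direction, and the first reading was used. Read as log2 of mouse over pool the median was 0.968, so the base is not settled. The opposite direction was not computed with base 2, so the choice of direction rests on the log10 reading. With base 2, every log2 value and difference here would be 3.32 times smaller, and orders of mice and p-values would stay as they are. Only wild-type arrays enter that comparison. For the knockout arrays the labels used here give no direction, and it remains unsettled. Over all probes they correlated with the wild-type arrays at values from -0.394 (mice 14 and 33) to 0.264 (mice 22 and 33). Among the wild types, mouse 22 correlated at -0.322 with mouse 14 and at -0.459 with mouse 26. Differences are given as read and, for the genes with an unadjusted p under 0.05 and for terminal complement and Cfd, with the knockout arrays turned in sign. For F2, Hgfac and C1s1, whose sign did not change, the turned differences were -0.09, -0.06 and -0.00. Those of the other genes of the set, and of the genes named for the smallest p in each other list, stand in the closing section. Array medians lay between -0.0052 and 0.0075 (log10), and the SD over all probes ran from 0.13 in mouse 14 to 0.29 in mouse 22 and 0.27 in mouse 33 (log2). Log ratios cannot show whether a tissue marker is present, so the liver label was not checked by level.

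Among the 38 genes, wild-type littermates differed most in the terminal complement genes C6, C8a, C8b and C9, adipsin (Cfd) and factor XI (F11). The plot of every gene by mouse shows these as the rows of deepest colour. Across the 5 wild types the median SD of the 38 genes was 0.18, against 0.11 over all 36169 features and 0.10 over 17 other plasma proteins of the liver. Other lists had a median SD as high or higher, with 0.18 for other coagulation genes, 0.22 for other complement genes, 0.23 for hepatocyte transcription factors and 0.225 for cytokine signalling genes. An SD above that of the median feature was seen in 34 of the 38, and 7 lay above the 95th percentile of all features (0.38). An SD above 0.5 was found in 6 genes (15.8%) and in 2.39% of all features. These were C8b (1.09), C6 (0.75), C8a (0.75), Cfd (0.74), C9 (0.55) and F11 (0.54). At the other end stood the classical pathway protease C1s1 (0.04), the fibrinogen chain Fgb (0.08), kininogen Kng1 (0.08) and factor IX, F9 (0.10). The array of mouse 22 had the widest spread over all probes. Without it the median SD of the set was 0.14 against 0.07 over all features, and the same 6 genes held the first 6 ranks. With all arrays scaled to the same median absolute deviation they held them too, with Cfd first (0.97) and C8b second (0.91).

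**Figure D1:**
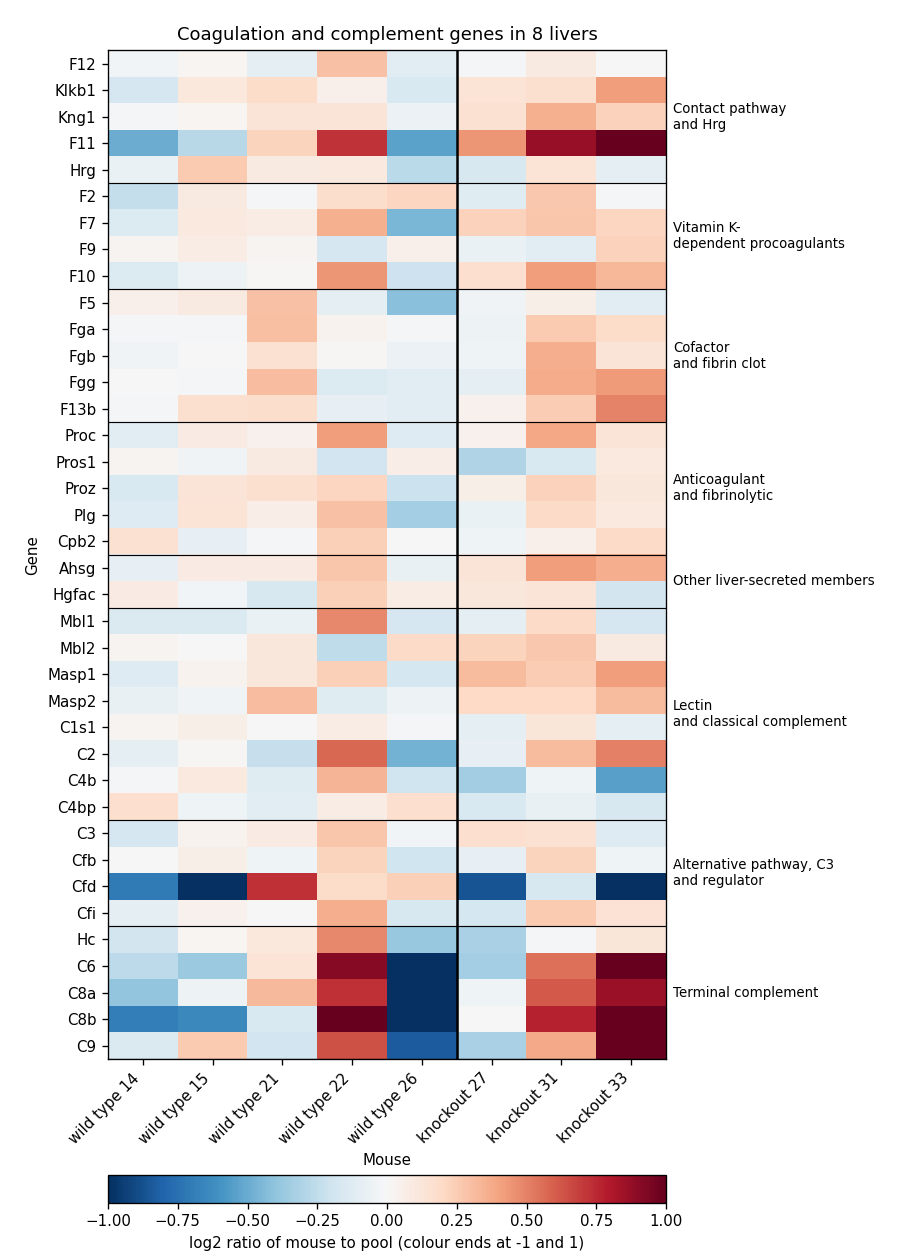
Colour gives the log2 ratio of each mouse (columns) to the wild-type pool for the 38 genes (rows, grouped by role), with blue below and red above the pool, and colours end at -1 and 1 although single values reach from -2.30 to 1.52. C6, C8a, C8b and C9 are low in wild-type mouse 26 and high in wild-type mouse 22 and knockout mouse 33, while Cfd follows another order.

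**Figure D2:**
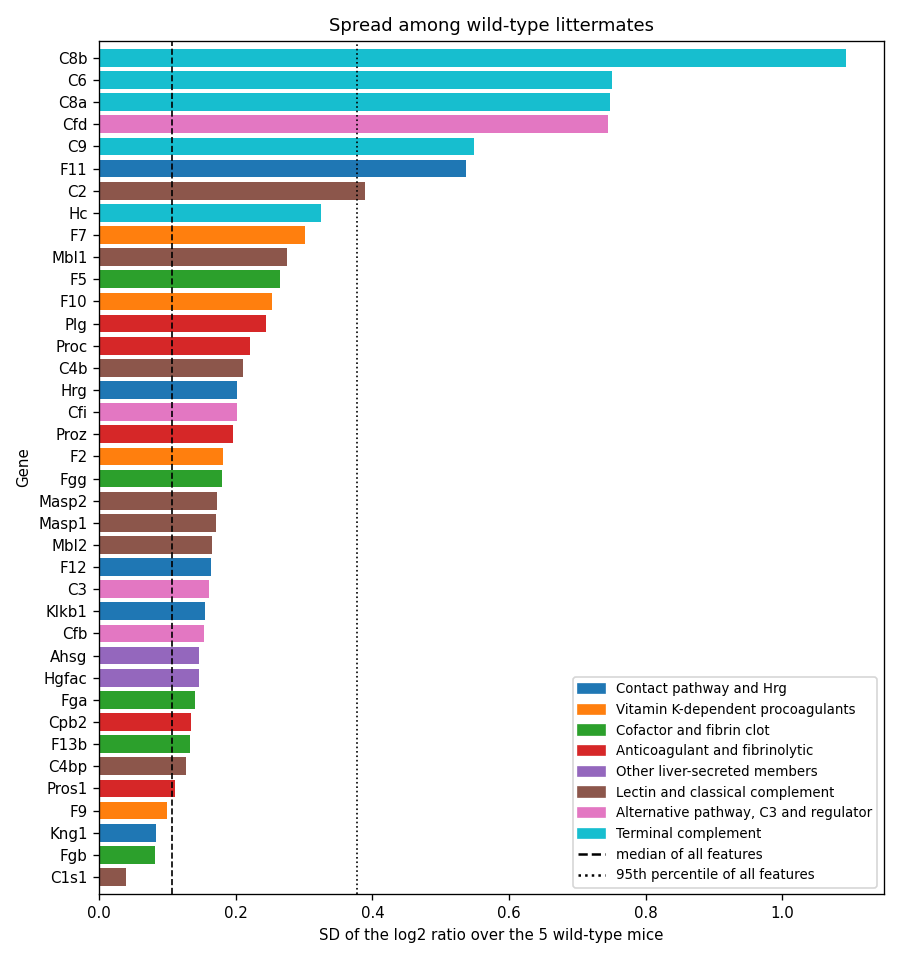
Bars give the SD of the log2 ratio over the 5 wild-type mice for each gene, coloured by role. The dashed line marks the median over all features (0.11) and the dotted line their 95th percentile (0.38), and C8b stands furthest out at 1.09.

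Between the genotypes, no gene of the set passed the test. In limma with Benjamini-Hochberg adjustment over 36169 features, 0 of the 38 genes passed adjusted p 0.05, a threshold that 0.0276% of all features passed. The smallest adjusted p in the set was 0.437, for Masp1. At an unadjusted p under 0.05 there were 7 genes (18.4%), 5 higher and 2 lower in the knockout, where 9.28% of all features reached it, 4.26% higher and 5.02% lower. These 7 were F11, Kng1, Ahsg, Masp1 and Masp2 among the higher and C4b and C4bp among the lower. Leaving out wild-type mouse 14 lowered the count to 3 (5.97% of all features), and leaving out knockout mouse 33 to 2 (4.73%). The difference was above 0 in 27 of the 38 genes (71.1%), as in 55.3% of all features and 49.9% of named genes, with a median of 0.09 against 0.01 over all features. With the knockout arrays turned in sign, 0 genes passed adjusted p 0.05 (0.0221% of all features), 7 had an unadjusted p under 0.05, all lower (11.5% of all features, 5.52% lower), and the median was -0.16 against -0.03 over all features. Turning changed the sign of the difference in 35 of the 38 genes. All 3 knockouts lay outside the range of the 5 wild types in 2 genes (5.26%), Kng1 and Masp1, where 7.21% of all features did so, and 4.35% did so as higher. With fewer mice more features lie apart: without wild-type mouse 22 it was 7 genes and 16.1% of all features, without knockout mouse 27 it was 6 genes and 17.3%, without wild-type mouse 21 it was 5 genes and 11.4%, and without knockout mouse 31 it was 5 genes and 12.3%. The turned reading gave 4 such genes, Kng1, Ahsg, Masp1 and Masp2, all lower, where 10.8% of all features did so and 7.05% as lower. Whether a difference in a whole-liver sample comes from fewer cells of a type or from less RNA per cell cannot be told apart here.

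**Figure D3:**
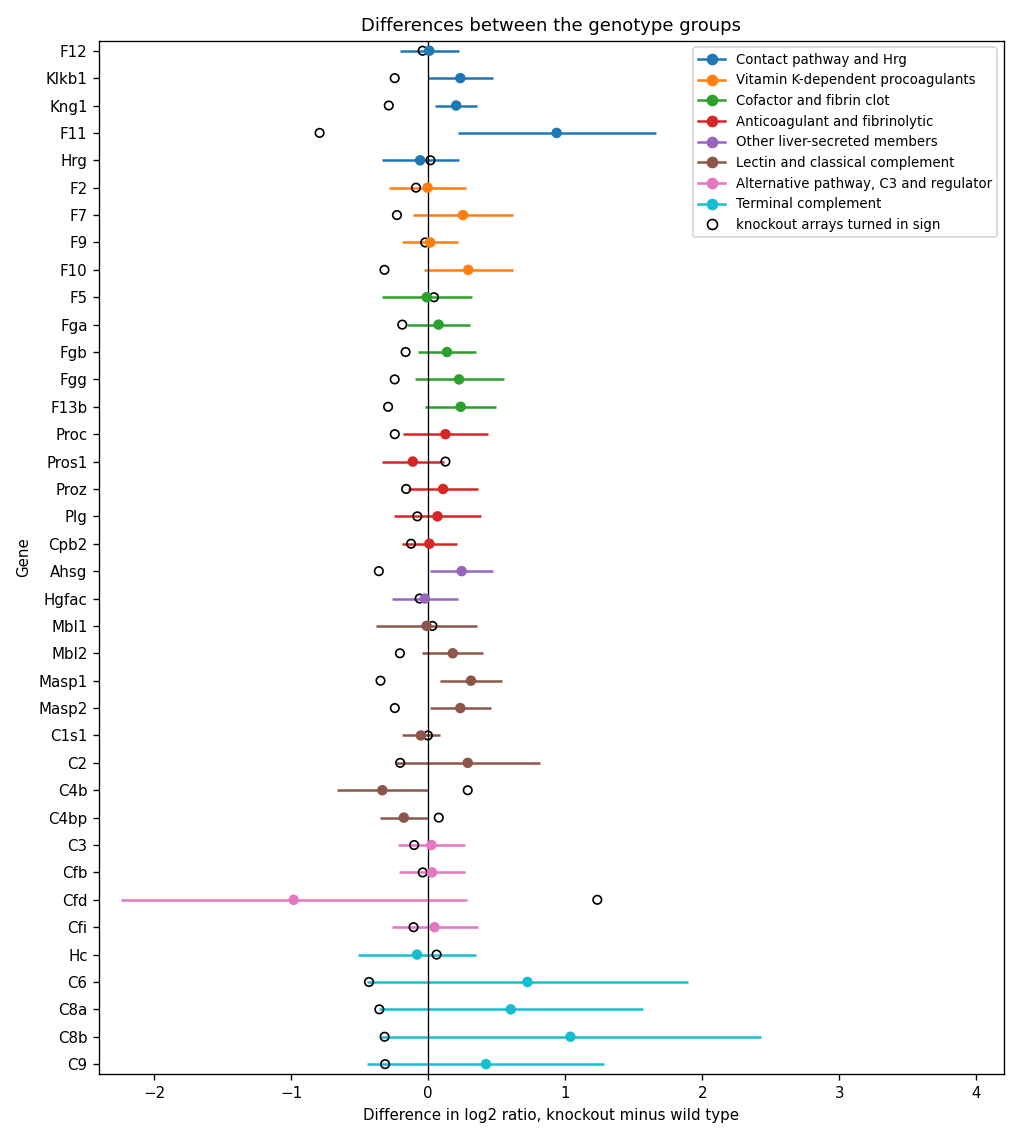
Points give the difference in log2 ratio, knockout minus wild type, for each gene, coloured by role, and lines its 95% confidence interval from limma (n = 3 and 5 mice), before adjustment for the number of features. Open circles give the difference with the knockout arrays turned in sign. F11 at 0.94 and Cfd at -0.98 lie furthest out beside C8b at 1.04, and the intervals of Cfd and C8b include 0.

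Terminal complement varied most and varied together. C8b encodes the beta chain of C8, which binds the growing pore complex, and had log2 ratios of -0.69, -0.64, -0.15, 1.34 and -1.65 in wild-type mice 14, 15, 21, 22 and 26, against 0.01, 0.77 and 1.26 in knockout mice 27, 31 and 33. Wild-type mice 26 and 22 thus held the lowest and the highest value of all 8 mice, 7.95-fold apart, and enclosed the knockouts. C8a, the alpha chain that inserts into the membrane, stood at -0.39, -0.05, 0.32, 0.73 and -1.23 in the wild types and at -0.04, 0.62 and 0.86 in the knockouts. Mouse 26 was again lowest, and knockout mouse 33 was highest. C6, which joins C5b at the start of the pore, stood at -0.26, -0.37, 0.14, 0.91 and -1.15 in the wild types and at -0.34, 0.55 and 1.52 in the knockouts. The order of extremes was that of C8a. Its 2 probes gave the same picture, with wild-type values from -1.22 to 0.94 and from -1.07 to 0.87. C9, which forms the ring of the pore, stood at -0.15, 0.26, -0.19, 0.64 and -0.83 in the wild types and at -0.33, 0.38 and 1.05 in the knockouts. Hc, the mouse gene for C5, ran over a narrower range, from -0.38 in mouse 26 to 0.48 in mouse 22, with knockouts at -0.32, -0.01 and 0.12. In all 5 genes mouse 26 was the lowest and mouse 22 the highest of the wild types, an order of extremes held by 20 of the 38 genes (52.6%) and by 13% of all features.

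**Figure D4:**
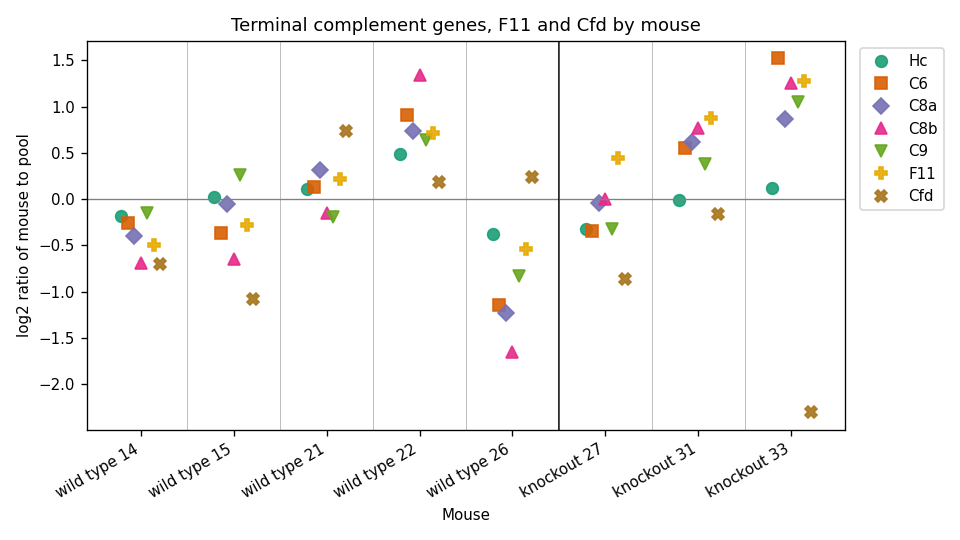
Each point is the log2 ratio of 1 mouse to the pool for the terminal complement genes Hc, C6, C8a, C8b and C9 and for F11 and Cfd, with the 5 wild types left and the 3 knockouts right of the black line. C6, C8a, C8b, C9 and F11 are low in mouse 26 and high in mice 22 and 33, and Cfd is lowest in mouse 33 at -2.30.

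The likeness of these patterns was measured over the 8 mice for the 81 pairs of genes that share a role, with Pearson's r, Spearman's rho, exact permutation tests over 40320 pairings and adjustment over the 81 pairs. The role lists were chosen with earlier results of these data known, so the p-values describe the pairs and are no independent test. C8a and C8b had r = 0.951 (exact adjusted p = 0.00804) and rho = 0.952 (exact adjusted p = 0.0231), and r was 0.907 without the 2 mice farthest from the median of C8a. Among the 10 pairs of terminal complement genes the median r was 0.874, with a range from 0.75 to 0.951, and 6 pairs had an exact adjusted p for r under 0.05, all of them within C6, C8a, C8b and C9. For rho as well, 2 of those 6 passed, C6 with C8a and C8a with C8b. The 4 pairs with Hc did not pass (exact adjusted p from 0.0817 to 0.101). With the knockout arrays turned in sign the median r was 0.904, and 9 of the 10 pairs had an exact adjusted p for r under 0.05. Among them were Hc with C6 (0.0387), with C8a (0.0314) and with C8b (0.012), while Hc with C9 had 0.0583. Setting Hc apart thus depends on the direction of the knockout arrays. With arrays scaled to the same spread the median r was 0.783. Leaving out the 2 mice farthest in either gene, and taking the lower r of each pair, gave a median of 0.692. That lower r was 0.683 for C8b with C9 and 0.387 for Hc with C8b. Over all 81 pairs the median r was 0.395. The genes of a pair share the array of each mouse, its scaling and the pool, and the genotype difference enters these values too. C8a and C8b are neighbours on chromosome 4 with no protein-coding gene between them in the GRCm38.p6 annotation.

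Between the genotypes the terminal complement differences were large and imprecise: 1.04 ± 0.60 for C8b, 0.72 ± 0.51 for C6, 0.60 ± 0.42 for C8a, 0.42 ± 0.38 for C9 and -0.08 ± 0.19 for Hc (log2 difference ± SE, n = 3 and 5 mice). None passed in limma, with adjusted p from 0.627 to 0.894. The interval for C8b ran from -0.35 to 2.43. With the knockout arrays turned, the same differences were -0.32, -0.43, -0.36, -0.31 and 0.06. C7, which joins between C6 and C8, was chosen after its values were seen. Its ratios hardly varied among the wild types, from -0.08 to 0.01, and stood at 0.00, 0.12 and 0.39 in knockout mice 27, 31 and 33. The difference was 0.19 ± 0.08, or -0.15 when turned. Signal over background is unknown for C7, so its narrow range cannot be read as steady expression.

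Because C6, C8a, C8b and C9 varied together, their promoter windows are shown, with those of Hc and of the neighbours F11 and Klkb1 described next. Each runs from 250 bases before to 50 bases after a RefSeq transcript start in GRCm38.p6, written in the direction of the gene. Capitals mark matches, on either strand, to 5 motifs of liver or cytokine-driven factors: TTCNNNGAA (STAT), CAAAGTCCA (HNF4), TTGCNNCAA (C/EBP), TGTTTAC (FOXA) and the HNF1 motif.
C6, chr15:4726960-4727259, plus strand: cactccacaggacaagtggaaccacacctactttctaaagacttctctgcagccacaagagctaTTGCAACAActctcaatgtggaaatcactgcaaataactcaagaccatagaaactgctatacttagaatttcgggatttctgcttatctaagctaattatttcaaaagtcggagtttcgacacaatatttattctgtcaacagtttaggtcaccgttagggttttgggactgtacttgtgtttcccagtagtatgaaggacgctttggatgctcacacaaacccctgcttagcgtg
C8a, chr4:104876349-104876648, minus strand: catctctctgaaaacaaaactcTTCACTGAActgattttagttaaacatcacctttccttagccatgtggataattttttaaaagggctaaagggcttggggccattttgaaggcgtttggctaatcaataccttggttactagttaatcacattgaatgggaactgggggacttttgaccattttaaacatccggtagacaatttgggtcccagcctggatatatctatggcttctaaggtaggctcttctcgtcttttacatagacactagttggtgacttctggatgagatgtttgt
C8b, chr4:104766067-104766366, plus strand: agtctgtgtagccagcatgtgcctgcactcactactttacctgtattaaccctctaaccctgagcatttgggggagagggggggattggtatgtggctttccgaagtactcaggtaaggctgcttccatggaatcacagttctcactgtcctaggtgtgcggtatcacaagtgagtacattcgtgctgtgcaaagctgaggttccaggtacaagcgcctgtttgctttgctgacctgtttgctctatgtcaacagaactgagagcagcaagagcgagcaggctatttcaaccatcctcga
C9, chr15:6445096-6445395, plus strand: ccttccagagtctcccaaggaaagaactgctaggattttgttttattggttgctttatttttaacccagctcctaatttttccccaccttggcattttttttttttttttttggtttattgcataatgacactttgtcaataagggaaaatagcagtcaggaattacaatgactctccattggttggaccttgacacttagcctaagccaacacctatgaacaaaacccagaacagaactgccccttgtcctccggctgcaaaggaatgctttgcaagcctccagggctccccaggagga
Hc, chr2:35061363-35061662, minus strand: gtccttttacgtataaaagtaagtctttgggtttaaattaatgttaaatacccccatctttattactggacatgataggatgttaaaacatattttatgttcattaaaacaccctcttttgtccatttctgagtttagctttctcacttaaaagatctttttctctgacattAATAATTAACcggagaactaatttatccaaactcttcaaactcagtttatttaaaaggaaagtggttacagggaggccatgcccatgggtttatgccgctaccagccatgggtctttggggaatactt
F11, chr8:45261982-45262281, minus strand: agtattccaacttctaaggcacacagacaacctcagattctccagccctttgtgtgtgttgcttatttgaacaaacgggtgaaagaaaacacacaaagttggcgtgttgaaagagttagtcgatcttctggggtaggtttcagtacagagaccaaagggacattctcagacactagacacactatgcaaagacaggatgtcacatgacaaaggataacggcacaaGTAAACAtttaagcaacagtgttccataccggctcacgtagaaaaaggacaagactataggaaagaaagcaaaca
Klkb1, chr8:45294786-45295085, minus strand: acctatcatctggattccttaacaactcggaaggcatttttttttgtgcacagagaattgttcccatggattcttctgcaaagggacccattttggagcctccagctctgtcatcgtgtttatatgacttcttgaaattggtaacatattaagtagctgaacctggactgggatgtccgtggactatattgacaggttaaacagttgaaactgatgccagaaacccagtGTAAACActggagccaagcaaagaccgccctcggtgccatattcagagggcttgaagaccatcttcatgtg
Among these 7 windows, C6 held 1 C/EBP match, C8a 1 STAT match, Hc 1 HNF1 match and F11 and Klkb1 1 FOXA match each, 25 and 21 bases before the start. No match to these letters lay in the windows of C8b and C9. The 4 genes that varied together thus shared no match. A promoter was at hand for 31 of the 39 genes, in 33 windows. These include windows of C8g, which is not analysed here, and windows of C1s1 that overlap each other, all without a match. An HNF1 match was found in 12.1% of the 33 windows and in 0.399% of all 32851 windows of the same length. For STAT the shares were 21.2% and 8.3%, for C/EBP 6.06% and 2.08%, for FOXA 6.06% and 3.65%, and for HNF4 0% and 0.475%. No 2 of the matches shown overlap, and a match is a run of letters, not a measured binding site.

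The contact pathway starts clotting on charged surfaces, and F11 was its most variable gene. F11 encodes factor XI, which activates factor IX, and stood at -0.49, -0.28, 0.22, 0.72 and -0.54 in wild-type mice 14, 15, 21, 22 and 26 against 0.44, 0.87 and 1.28 in knockout mice 27, 31 and 33. Only wild-type mouse 22 reached into the range of the knockouts. The difference was 0.94 ± 0.31, which is 1.92-fold, with an unadjusted p of 0.0171 and an adjusted p of 0.471 in limma. Turned, it was -0.79 ± 0.31. Klkb1, the next gene on chromosome 8, encodes plasma prekallikrein, the protease that activates factor XII and frees bradykinin. Its values ran from -0.17 to 0.18 in the wild types and were 0.14, 0.16 and 0.41 in the knockouts, a difference of 0.23 ± 0.10. Over the 8 mice F11 and Klkb1 had r = 0.836 (exact adjusted p = 0.0461), rho = 0.738 (exact adjusted p = 0.155) and r = 0.624 without the 2 mice farthest in Klkb1. With the knockout arrays turned in sign, r was 0.831 with an exact adjusted p of 0.0512.

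Kng1, which encodes the kininogen that carries prekallikrein and releases bradykinin, stood at -0.01, 0.02, 0.13, 0.13 and -0.06 in the wild types and at 0.15, 0.35 and 0.23 in the knockouts. All 3 knockouts lay above every wild type, though mouse 27 lay only just above mouse 22. With array medians set to 0 the groups overlapped. The difference was 0.20 ± 0.07 (adjusted p = 0.45 in limma), and -0.29 when turned. Its 2 probes differed in size, at 0.05 and 0.36, and the first gave 0.01 in knockout mouse 27. Kng2, the neighbouring kininogen gene of close sequence, stood at 0.30 ± 0.08, so which of the 2 genes a probe reads is uncertain. Kng1 and F11 had r = 0.89 (exact adjusted p = 0.0304), rho = 0.952 (exact adjusted p = 0.0231) and r = 0.964 without the 2 mice farthest in Kng1. F12, which starts the contact chain, stood at 0.01 ± 0.09, and Hrg, a histidine-rich plasma glycoprotein that binds heparin and plasminogen, at -0.06 ± 0.12.

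Factors II, VII, IX and X are proteases whose precursors need vitamin K for their calcium-binding residues. F7, which starts clotting with tissue factor, stood at 0.25 ± 0.16 and F10, which cuts prothrombin, at 0.29 ± 0.14. The knockouts lay at 0.23, 0.28 and 0.21 for F7 and at 0.17, 0.42 and 0.33 for F10, and wild-type mouse 22 was above all of them with 0.36 and 0.44. F7 and F10, neighbours on chromosome 8, had r = 0.876 (exact adjusted p = 0.00804), rho = 0.952 (exact adjusted p = 0.0231) and r = 0.931 without the 2 mice farthest in F7. Prothrombin, F2, stood at -0.00 ± 0.12 and F9, the factor missing in haemophilia B, at 0.02 ± 0.09. No gene of the 4 passed in limma, with adjusted p from 0.565 to 0.993.

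Fibrinogen is built of 3 chains, each from its own gene. Fga stood at -0.02, -0.01, 0.30, 0.03 and -0.02 in wild-type mice 14, 15, 21, 22 and 26 and at -0.05, 0.26 and 0.19 in knockout mice 27, 31 and 33. Mouse 21 was the highest wild type in Fga, Fgb (0.15) and Fgg (0.31), and knockout mouse 27 stayed near the pool in all 3 chains, at -0.05, -0.04 and -0.09. Fga and Fgb had r = 0.873 (exact adjusted p = 0.0391), rho = 0.905 (exact adjusted p = 0.0462) and r = 0.959 without the 2 mice farthest in Fga. The 3 genes lie next to each other on chromosome 3. Their differences were 0.08 ± 0.10, 0.14 ± 0.09 and 0.23 ± 0.14. F13b, which carries the fibrin-crosslinking factor XIII, stood at 0.24 ± 0.11, and F5, which encodes factor V, the cofactor of activated factor X, at -0.01 ± 0.14. Fgg and F13b had r = 0.885 (exact adjusted p = 0.00804), rho = 0.905 (exact adjusted p = 0.0462) and r = 0.749 without the 2 mice farthest in Fgg. Adjusted p in limma ran from 0.558 to 0.984 in these 5 genes.

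The anticoagulant and fibrinolytic genes of the set hold back clotting, or make or restrain the enzyme that dissolves the clot. Proc encodes protein C, which inactivates factors V and VIII, and stood at 0.13 ± 0.13. Its cofactor gene Pros1 stood at -0.11 ± 0.10, and Proz, the cofactor of a factor X inhibitor, at 0.11 ± 0.11. Plg, the precursor of plasmin, stood at 0.07 ± 0.14 and Cpb2, a carboxypeptidase that protects fibrin from plasmin, at 0.01 ± 0.09. Plg was low in wild-type mouse 26 (-0.34) and high in mouse 22 (0.29), as was Proc (-0.13 and 0.42). Proz and Plg had r = 0.938 (exact adjusted p = 0.00804), rho = 0.905 (exact adjusted p = 0.0462) and r = 0.853 without the 2 mice farthest in Proz. None of the 5 passed in limma, with adjusted p from 0.741 to 0.978.

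Ahsg encodes fetuin-A, a carrier that keeps calcium phosphate in solution, and stood at -0.08, 0.09, 0.09, 0.27 and -0.07 in the wild types against 0.13, 0.42 and 0.36 in the knockouts. Wild-type mouse 22 alone overlapped the knockouts. The difference was 0.24 ± 0.10 (adjusted p = 0.52 in limma), with 0.13 and 0.35 by its 2 probes, and -0.36 when turned. Hgfac, the protease that activates hepatocyte growth factor, stood at -0.02 ± 0.10.

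Among the starters of complement, the lectin pathway proteases Masp1 and Masp2 had higher ratios in every knockout than in at least 4 of the 5 wild types, as read. Masp1 stood at -0.13, 0.03, 0.12, 0.24 and -0.17 in wild-type mice 14, 15, 21, 22 and 26 and at 0.32, 0.25 and 0.42 in knockout mice 27, 31 and 33. The groups did not overlap, though mouse 31 lay only just above mouse 22. With array medians set to 0 they did. The difference was 0.31 ± 0.10, which is 1.24-fold, with an adjusted p of 0.437 in limma, and turned it was -0.35. Masp2, the protease that cuts C4 and C2, stood at 0.20, 0.20 and 0.32 in the knockouts and between -0.12 and 0.31 in the wild types, where mouse 21 alone reached the knockouts. Its difference was 0.23 ± 0.10 and turned -0.24. The mannose-binding lectins Mbl1 and Mbl2, which carry these proteases, stood at -0.01 ± 0.16 and 0.18 ± 0.10.

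C4b and C4bp stood lower on balance. C4b, the mouse gene for complement C4, was at -0.01, 0.10, -0.12, 0.34 and -0.20 in the wild types and at -0.35, -0.04 and -0.54 in the knockouts, a difference of -0.33 ± 0.14 (adjusted p = 0.536 in limma) and of 0.29 when turned. Its copy C4a stood at -0.33 ± 0.13 by a probe of its own, with mouse 22 highest and mouse 33 lowest as in C4b. C4bp, which encodes a chain of the inhibitor that binds C4b protein, was at 0.17, -0.04, -0.11, 0.07 and 0.17 in the wild types and at -0.15, -0.07 and -0.16 in the knockouts, a difference of -0.18 ± 0.08 (adjusted p = 0.531) and of 0.08 when turned. In both genes the groups overlapped at knockout mouse 31. C2, which joins C4 in the convertase that cuts C3, ranged from -0.47 to 0.57 in the wild types (mice 26 and 22) and stood at 0.29 ± 0.23, and C1s1 at -0.05 ± 0.06. The 28 pairs of these 8 genes had a median r of 0.058 and none passed, with exact adjusted p of at least 0.0563.

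Cfd had the lowest single value of the set and an order of mice of its own. It encodes adipsin, the protease that activates factor B in the alternative pathway and is known as a product of fat cells. It stood at -0.70, -1.08, 0.73, 0.18 and 0.24 in wild-type mice 14, 15, 21, 22 and 26 and at -0.86, -0.16 and -2.30 in knockout mice 27, 31 and 33. Wild-type mice 14 and 15 lay within the range of the knockouts. The difference was -0.98 ± 0.55 with an interval from -2.24 to 0.28 and an adjusted p of 0.613 in limma, 1.23 when turned, and leaving out single mice gave -1.46 to -0.38 (-0.38 without mouse 33). Markers of fat cells were read beside it. Their median over 8 measured markers lay between -0.03 and 0.03 in the wild types and between 0.03 and 0.08 in the knockouts, and Adipoq, which encodes the fat cell hormone adiponectin, stayed between -0.22 and 0.14 in all mice. In knockout mouse 33 Adipoq stood at 0.03. The widest of these markers was Slc2a4, from -0.998 in mouse 26 to 0.95 in mouse 27, and next Fabp4, from -0.70 in mouse 22 to 0.46 in mouse 26. Their part in the Cfd values was not tested. C3, on which all complement routes converge, stood at 0.02 ± 0.11, the alternative pathway protease gene Cfb at 0.03 ± 0.10 and Cfi, the protease that breaks down C3b, at 0.05 ± 0.14. Cfb and Cfi had r = 0.87 (exact adjusted p = 0.0391) but rho = 0.833 with an exact adjusted p of 0.089, and r was 0.557 without the 2 mice farthest in Cfb.

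The other genes of both systems, many of them made outside hepatocytes, showed no called change either. Of 23 other coagulation genes, 0 passed adjusted p 0.05, 12 were above and 11 below 0, and the median was 0.02. The 3 with the smallest p were Plat, the tissue plasminogen activator, at -0.75 ± 0.17 (adjusted p = 0.315 in limma), Kng2, and Vwf, the platelet-binding factor of endothelium, at -0.39 ± 0.11. Plat stood at -0.68, -0.65 and -0.73 in the knockouts and between -0.42 and 0.43 in the wild types, with no overlap. Of 20 other complement genes, 0 passed, 8 were above and 12 below 0, and the median was -0.04. Here the smallest p values belonged to Cd59a, which blocks the C9 ring on the body's own cells, at -0.29 ± 0.09, the C5a receptor gene C5ar2 at -0.30 ± 0.09 and C4a.

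Among 12 transcription factors of hepatocytes, 0 passed, 6 were above and 6 below 0, and the median was 0.02. Foxa1 stood at 0.53 ± 0.20, Onecut1 at 1.16 ± 0.55 and Foxa3 at 0.38 ± 0.20. Onecut1 was itself wide among wild types, from -1.15 to 0.84. Of 11 genes that carry cytokine signals to the liver, 0 passed, 5 were above and 6 below 0, and the median was -0.03. The leukaemia inhibitory factor receptor gene Lifr stood at 0.73 ± 0.18, at 0.31, 0.69 and 1.22 in the knockouts against -0.18 to 0.16 in the wild types. The oncostatin M receptor gene Osmr stood at -0.28 ± 0.11 and the kinase gene Jak1 at 0.09 ± 0.06. Of 17 other plasma proteins of the liver, 0 passed, 10 were above and 7 below 0, and the median was 0.02, with Itih2, a chain of the hyaluronan-binding inter-alpha-inhibitor, at 0.37 ± 0.07 (adjusted p = 0.249 in limma), the retinol carrier Rbp4 at 0.11 ± 0.05 and Apoa1 at 0.14 ± 0.07.

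Markers of cell types other than hepatocytes were read beside these values. The median over 11 Kupffer cell and macrophage markers lay between -0.30 (mouse 26) and 0.18 (mouse 22) in the wild types and between -0.17 and -0.10 in the knockouts, and that over 10 endothelial markers between -0.08 and 0.05 and between 0.00 and 0.12. For 8 stellate cell and fibroblast markers the ranges were -0.45 to 0.24 and -0.33 to -0.03, for 8 neutrophil markers -0.11 to 0.11 and -0.16 to 0.01, for 6 platelet markers -0.07 to 0.19 and -0.26 to -0.07, and for 6 exocrine pancreas markers -0.26 to 0.19 and 0.01 to 0.19. The macrophage, neutrophil and pancreas medians thus shared with terminal complement the low value of mouse 26 and the high value of mouse 22, at smaller size. So did the medians of lists that are not cell type markers, such as other complement genes (-0.21 and 0.22) and other plasma proteins of the liver (-0.06 and 0.12). The stellate and endothelial medians ran the other way, highest in mouse 26 (0.24 and 0.05) and lowest in mouse 22 (-0.45 and -0.08), and the collagen gene Col1a1 stood at 0.93 and -1.67 in these mice. Single markers were split. Of the pancreas list, Cpa1, Prss2 and Cel stood lower in mouse 22 than in mouse 26, and Cela1, Ctrb1 and Pnlip higher. The neutrophil markers S100a8 and Retnlg and the macrophage marker Lyz2 also stood lower in mouse 22 than in mouse 26. The other neutrophil and macrophage markers stood higher. Of the endothelial list, Clec4g stood higher in mouse 22 (0.21) than in mouse 26 (-0.07), and the other markers lower. In knockout mouse 33 the terminal complement median was 1.05, against -0.10 for macrophage, -0.10 for neutrophil and 0.19 for pancreas markers. The part of these cell types in the terminal complement values was not tested.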

How the data were processed

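Liver RNA of 8 mice was hybridised against a pool of 5 wild-type livers on 2-colour arrays (Cy3 and Cy5, with dye-swapped profiling and amplified, aminoallyl-labelled RNA, per the labels' protocols). The authors deposited 1 log10 ratio per probe and mouse; base and direction were inferred from the wild types as described above. For background correction, normalization and the merging of dye swaps, the tools and settings are not stated in what was used here. Values were converted to log2. Of 39556 probes, 23283 had 1 gene symbol, 0 had several and 16273 had none. Symbols were updated through RefSeq GRCm38.p6 tables (6594 synonyms, 1 by hand, C4 to C4b). Probes of a gene were averaged, which gave 36169 features. Knockout minus wild type was fitted with limma 3.58.1 (R 4.3.3; lmFit, eBayes) and Benjamini-Hochberg adjustment over all features. The fit was tested on simulated data. Correlations used Python 3.11.15 and scipy 1.17.1. Replicates are different mice, and the labels give no batch. All members are described, and for each list of other genes the 3 with the smallest p are named, besides C7 and single cell markers that were chosen after their values were seen. The members and lists were chosen with earlier results of these data known. Promoter windows are from RefSeq (GRCm38.p6).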

Additional observations from a re-analysis of the deposited data

Results flagged for a closer look

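In 4 genes, 1 wild-type mouse stood apart from the other 4 by a gap that was large against the range of the group (Dixon's test, critical value 0.71). This was tested in 39 genes, and chance puts about 5% of groups past that value. F9 was lowest in mouse 22, at -0.17 with the next mouse at 0.03. Mbl1 was highest in mouse 22, at 0.48 with the next mouse at -0.07. Fga was highest in mouse 21, at 0.30 with the next mouse at 0.03. Masp2 was highest in mouse 21 as well, at 0.31 with the next mouse at -0.03.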

How the results depend on the processing

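Across 20 alternatives, 0 genes of the set passed adjusted p 0.05 in limma. The smallest adjusted p was 0.0718, for F11 with array quality weights (1.11 ± 0.23). The sign of the difference was kept by 24 of 38 genes in every alternative other than turning the knockout arrays. The count at an unadjusted p under 0.05 (7 as reported, 9.28% of all features) was 15 with array quality weights (20.4% of all features), 3 with the more variable features alone (9.38%), 14 with the knockouts against the pool alone (17.6%), and 2 to 9 when any 1 mouse was left out (4.73% to 16.2%). The count without overlap (2 as reported, 7.21% of all features) was 4 turned (10.8%), 0 with array medians set to 0 (6.78%), 12 without the arrays of widest spread, mice 22 and 33 (23.4%), and 2 to 7 when any 1 mouse was left out (8.13% to 17.3%). The median difference turned was -0.16. Differences that changed sign when turned were Ahsg -0.36, Apoa1 -0.16, C2 -0.20, C3 -0.10, C4a 0.30, C4b 0.29, C4bp 0.0774, C5ar2 0.30, C6 -0.43, C8a -0.36, C8b -0.32, C9 -0.31, Cd59a 0.27, Cfb -0.0395, Cfd 1.23, Cfi -0.11, Cpb2 -0.12, F10 -0.32, F11 -0.79, F12 -0.0404, F13b -0.29, F5 0.0427, F7 -0.23, F9 -0.0213, Fga -0.19, Fgb -0.16, Fgg -0.24, Foxa1 -0.51, Foxa3 -0.34, Hc 0.0614, Hrg 0.0166, Itih2 -0.38, Jak1 -0.0982, Klkb1 -0.24, Kng1 -0.29, Kng2 -0.36, Lifr -0.74, Masp1 -0.35, Masp2 -0.24, Mbl1 0.031, Mbl2 -0.21, Onecut1 -0.65, Osmr 0.35, Plat 0.62, Plg -0.0789, Proc -0.24, Pros1 0.13, Proz -0.16, Rbp4 -0.0813 and Vwf 0.45. With array medians set to 0 they were Cpb2 -0.0064, F12 -0.007 and F9 -0.0005. With arrays scaled to the same spread they were Cpb2 -0.0123, F2 0.0121, F9 -0.0502, Hgfac 0.0136 and Mbl1 0.0622. Quantile normalization gave F2 0.0347, F9 -0.0341, Hgfac 0.0333 and Mbl1 0.10. Array quality weights gave C1s1 0.0043, Cpb2 -0.0061, F2 0.16, F9 -0.0718, Hc 0.0312, Hgfac 0.0484, Hrg 0.0312, Mbl1 0.17 and Me1 -0.53. Leaving out both widest arrays gave Cpb2 -0.0078, F2 0.0595, F5 0.0112, F9 -0.13, Hgfac 0.13, Mbl1 0.18 and Me1 -0.0409. Knockouts against the pool gave F2 0.0421, Hgfac 0.0188 and Me1 -0.22. Leaving out any 1 mouse gave ranges across 0 for C3 -0.0277 to 0.12, Cfb -0.0682 to 0.0866, Cfi -0.0466 to 0.17, Cpb2 -0.0537 to 0.0637, F12 -0.0254 to 0.0782, F2 -0.12 to 0.077, F5 -0.11 to 0.0671, F9 -0.0893 to 0.0768, Hc -0.18 to 0.0451, Hgfac -0.0778 to 0.078, Hrg -0.15 to 0.0018, Mbl1 -0.12 to 0.11, Me1 -0.43 to 0.38 and Plg -0.0176 to 0.14. The cause of these changes was not tested. No paired analysis was possible because the groups share no replicate numbers. Signal over background is unknown, since the files hold only ratios.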

Other observations

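A few genes outside the coagulation and complement systems were read after the values of terminal complement had been seen, and they are given as values only. Hsd3b5, a steroid dehydrogenase known for male-predominant expression in mouse liver, stood at -2.89, -2.25, 0.50, 1.61 and -4.03 in wild-type mice 14, 15, 21, 22 and 26 and at 0.41, 0.77 and 1.74 in knockout mice 27, 31 and 33. From lowest to highest, the 8 mice had the same order in Hsd3b5 as in C8a with the knockout arrays as read. With the knockout arrays turned in sign the 2 orders would differ. The other terminal complement genes, C6, C8b, C9 and Hc, each had another order than Hsd3b5. The organic anion transporter gene Slco1a1, also male-predominant, stood at -1.19, -1.11, 0.80, 1.18 and -3.08 in the wild types and at 1.27, 1.24 and 2.38 in the knockouts. As read, its order of mice was that of Masp1. Cyp7b1 was read as well and stood at -0.83, -0.19, -0.04, 1.12 and -1.57 in the wild types and at -0.21, 0.25 and 1.69 in the knockouts. Cyp2b9, known as female-predominant, stood at 0.21, 0.44, -0.74, -2.66 and 0.74 in the wild types and at -0.59, -1.75 and -3.58 in the knockouts. As read, mouse 26 was highest and mice 22 and 33 lowest. With the knockout arrays turned in sign, mouse 33 would be highest. The labels used here give no sex. Over all 8 mice Xist ran from -0.11 to 0.36, Uty from -0.30 to 0.21 and Eif2s3y from -0.37 to 0.36.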
